A study of Mus musculus with 12 samples.

Results

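Monoamine synthesis, transport and breakdown were followed through 9 genes in striatal RNA sequencing of TAAR5-KO and WT mice. The genes were selected by name, as the rows of the count table with the symbols Th, Ddc, Slc6a3, Slc18a2, Maoa, Maob, Gch1, Tph2 and Slc6a4, and all 9 were found among its 57132 features. They were separated by the cells they are known from. Maoa and Maob are transcribed by cells of the striatum itself. Th, Slc6a3, Slc18a2 and Ddc are known mainly from the cell bodies of midbrain dopamine neurons. Tph2 and Slc6a4 are known from the cell bodies of raphe serotonin neurons, and the cofactor gene Gch1 was kept apart. The study compared mice lacking trace amine-associated receptor 5 with their WT littermates, both of C57Bl/6 background and both at the age of 10 months, with 6 libraries per genotype. The striatum was what remained of a coronal forebrain slice after removal of the cortex. According to the methods, each group held males and females in equal number, but no library is tied to an animal or a sex. Libraries carry the TAAR5-KO label from NK1 to NK6 and the WT label from NK7 to NK12. What part of Taar5 the knockout allele removes is not given in the sources used here.

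Dopamine and serotonin are made from tyrosine and tryptophan by hydroxylases that need tetrahydrobiopterin, followed by a shared decarboxylase. They are then packed into vesicles, released, taken up again by transporters of the plasma membrane and broken down by monoamine oxidases at the outer mitochondrial membrane. The striatum receives these amines from axons whose cell bodies lie in the midbrain and in the raphe nuclei, so most messenger RNA of the synthetic enzymes and uptake transporters stays outside a striatal dissection. Monoamine oxidases, in contrast, are transcribed by cells within the striatum, and Maob is well known from astrocytes. In bulk tissue, fewer cells of a type and less RNA per cell cannot be told apart.

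Several features of the libraries bear on these genes. Total counts ran from 11269915 to 34824450 per library, but ribosomal RNA took 64.3% to 88.1% of them, and 1819907 to 6399188 counts per library remained for all other features. Taar5 itself went against the labels, with 16 counts in total in the libraries labelled TAAR5-KO and 3 in those labelled WT, so genotypes are given below as labels. Spiny neuron markers were present in every library, with a summed level of 175 to 394 CPM (counts per total scaled by TMM factors, times 1000000). Of 12 markers of midbrain dopamine neurons, Pitx3, En1, Foxa1, Foxa2 and Lmx1b never exceeded 2 counts in a library, and Lmx1a, Chrnb3, Chrna6 and En2 reached at most 11, 9, 7 and 7 counts. The other 3 (Nr4a2, Slc10a4 and Ret) passed the filter on low counts, and all 3 are also known from other neurons. The serotonergic factors Fev, Gata2 and Gata3 reached at most 5 counts. Choroid plexus markers varied widely, with a summed level of 2.45 to 475 CPM in the libraries labelled TAAR5-KO and 3.43 to 290 CPM in those labelled WT.

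Maoa and Maob are paralogues that lie beside each other on the X chromosome, so it was first examined whether their reads can be told apart. On GRCm39, Maoa (ENSMUSG00000025037.7) spans chrX:16485937-16554057 on the plus strand and Maob (ENSMUSG00000040147.15) spans chrX:16575521-16683605 on the minus strand, with 21463 bases between their ends. The longest stretch that their merged exons share is 35 bases of coding sequence, and no window of 100 bases, the read length, is shared. These windows of 65 bases are shown because they hold the longest exact run that the pair shares. They are printed in the direction of transcription, with the shared bases in capitals, and each crosses an exon junction after its base 15.
Maoa: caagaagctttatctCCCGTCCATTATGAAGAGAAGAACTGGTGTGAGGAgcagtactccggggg
Maob: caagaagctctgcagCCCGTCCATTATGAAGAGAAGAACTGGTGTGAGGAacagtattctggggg
The Maoa window joins chrX:16547096-16547110 and chrX:16548440-16548489, and the Maob window joins chrX:16584495-16584509 and chrX:16582673-16582722. Flanking bases differ on either side of the capitals, so a read of full length over this place carries letters that tell the genes apart. Matches to annotated transcripts of other genes were more extensive for Maoa, where they fell on 381 genes. Sequence outside annotated transcripts was not searched. Stretches that match other genes at 90% identity or more over at least 100 bases covered 12.7% of the Maoa exons, 6.70% of those of Slc18a2 and 5.47% of those of Ddc, and none of the other 6 members. How reads with several matches were treated is not given in the sources used here.

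Levels of the 9 members differed widely per length. To compare genes, the TMM-normalized CPM was divided by the kilobases of merged exon and averaged over the 12 libraries. Maob was the most abundant member at 1.54 ± 0.27 CPM per kb (SD, n = 12), followed by Maoa at 1.04 ± 0.086 CPM per kb. Maob exceeded Maoa per kb in 12 of 12 libraries, with a mean ratio of Maoa to Maob of 0.686 ± 0.10 (SD, n = 12). This order rests on the merged exon lengths of 2789 bases for Maob and 4167 for Maoa, since their counts were nearly equal on average. Slc18a2, the vesicular monoamine transporter VMAT2, followed at 0.328 ± 0.064 CPM per kb and lay below Maoa in 12 of 12 libraries. Ddc, the aromatic amino acid decarboxylase, reached 0.190 ± 0.069 CPM per kb, and Th, the rate-limiting tyrosine hydroxylase, 0.108 ± 0.066 CPM per kb. Each of these neighbours held its order in 11 of 12 libraries. Tph2, the neuronal tryptophan hydroxylase, reached 0.0382 ± 0.036 CPM per kb and was below Th in 9 of 12 libraries. The lowest levels per kb were those of the serotonin transporter Slc6a4 (0.0128 ± 0.0094), the dopamine transporter Slc6a3 (0.0122 ± 0.014) and Gch1 (0.0107 ± 0.012). Tph2, Slc6a4, Slc6a3 and Gch1 are neighbours in the order that did not differ beyond their spread. Within the dopamine group, Slc18a2 was thus read at 11 or more counts in every library, whereas Slc6a3 never exceeded 3 counts.

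**Figure D1:**
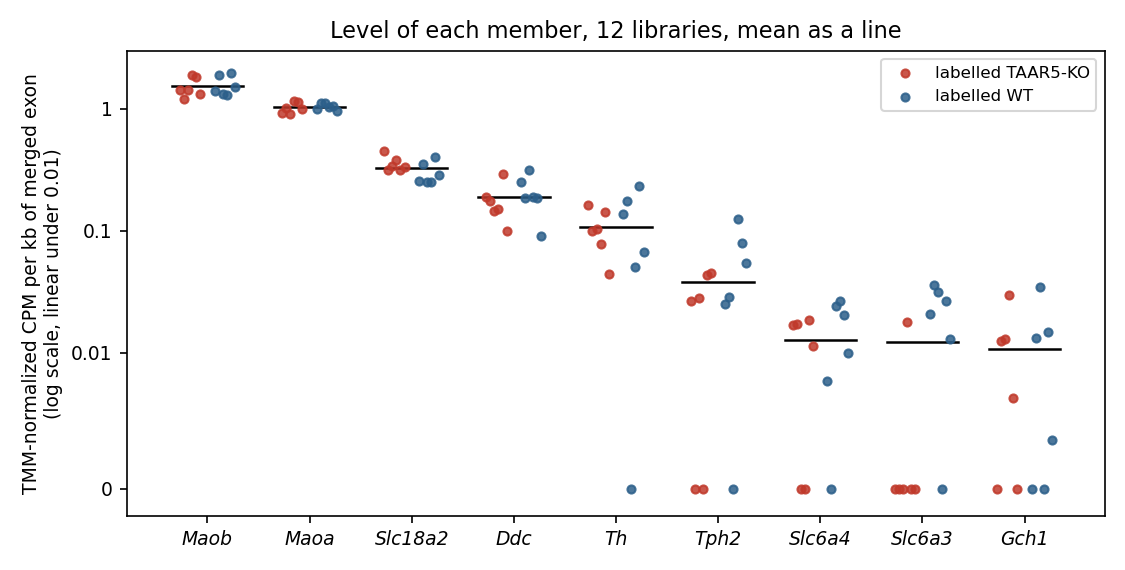
Level of each member in TMM-normalized CPM per kb of merged exon, on a log axis that is linear under 0.01, with 1 point per library (red, labelled TAAR5-KO; blue, labelled WT) and the mean of the 12 libraries as a line. Maob and Maoa stand at 1.54 and 1.04 CPM per kb, and the 3 lowest members lie between 0.0107 and 0.0128 CPM per kb with libraries at 0.

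To estimate differences between the labelled genotypes, all 12 libraries were fitted in edgeR over the 13902 features with at least 0.5 CPM in at least 3 libraries (for this filter CPM was taken on total counts, without TMM factors), and features with a Benjamini–Hochberg adjusted p under 0.1 in the likelihood ratio test were called. Of the 9 members, 5 passed this filter, namely Maoa, Maob, Slc18a2, Ddc and Th, and Th did so with exactly 3 libraries. With the filter on TMM-scaled CPM, 13053 features passed and Th did not. None of these 5 was called, whereas 229 of all features tested (1.65%) were. The quasi-likelihood test of edgeR called 63 features (0.453%) and none of the 5 members. None of the 5 had an unadjusted p under 0.05, against 11.9% of all features tested. Of the 5 members, 1 had a fold change above zero and 4 below, with a median log2 fold change of -0.07 against -0.01 over all features tested. The groups overlapped for each of the 5, whereas they did not overlap for 1.01% of all features tested.

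**Figure D2:**
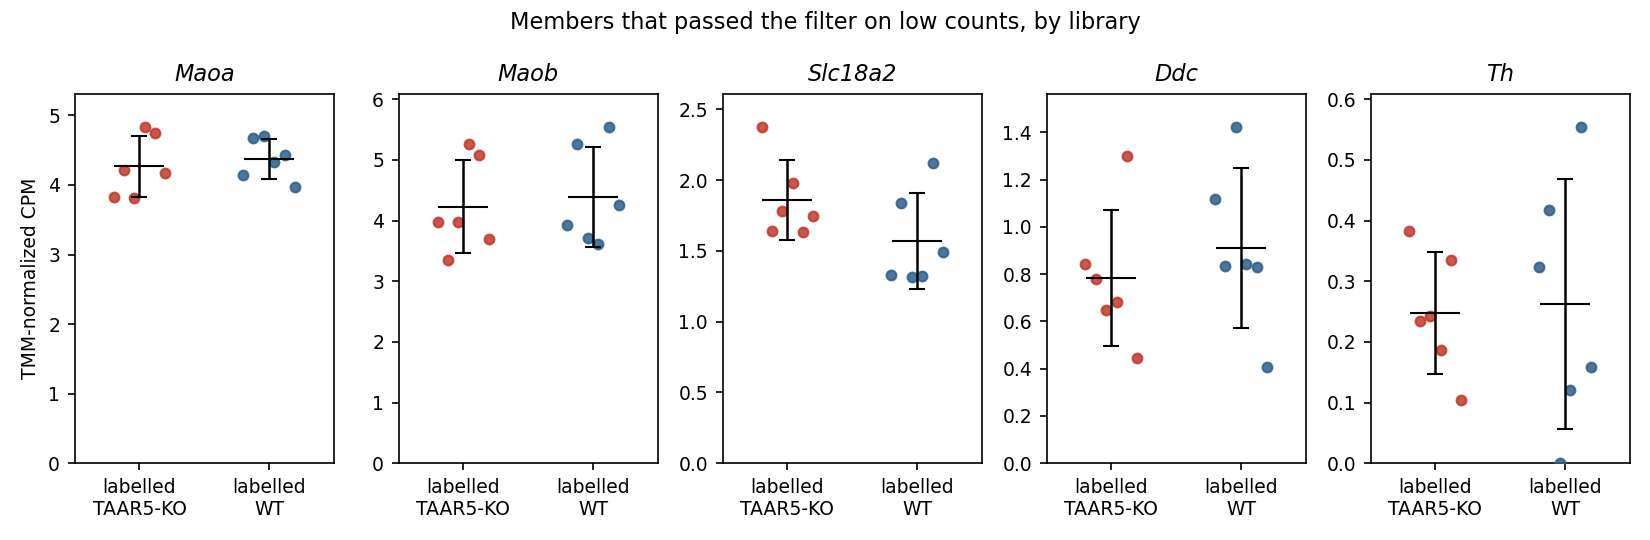
TMM-normalized CPM of the 5 members that passed the filter, 1 point per library, with the mean and SD of the 6 libraries of each label. The groups overlap in every panel, from Maoa with means of 4.27 and 4.38 CPM to Th with means of 0.248 and 0.262 CPM.

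Among the 5 tested members, the monoamine oxidases had the smallest standard errors. Maoa, which prefers serotonin and noradrenaline as substrates, ran from 3.81 through a median of 4.19 to 4.83 CPM in the libraries labelled TAAR5-KO and from 3.98 through 4.38 to 4.70 CPM in those labelled WT. The highest and the lowest library both carried the TAAR5-KO label, and the ranges overlapped almost entirely. Its log2 fold change was -0.01 ± 0.11 (SE, n = 6 and 6; adjusted p = 0.991), and the 95% interval reached from 0.856-fold to 1.16-fold. The coefficient of variation of Maoa over the 12 libraries was 8.28%, below the 12.0% that counting error alone would give at 36 to 176 counts per library. Maob, which prefers phenylethylamine and is the oxidase of astrocytes, ran from 3.36 through a median of 3.98 to 5.27 CPM in the libraries labelled TAAR5-KO and from 3.61 through 4.09 to 5.54 CPM in those labelled WT. Both groups held libraries above 5 CPM (NK4, NK5, NK8 and NK11) as well as libraries under 4 CPM. Its log2 fold change was -0.07 ± 0.15 (SE, n = 6 and 6; adjusted p = 0.900), with a 95% interval from 0.777-fold to 1.16-fold. Its coefficient of variation was 17.7%, against 11.8% from counting error alone. Since both genes are X-linked and the sex of the libraries is unknown here, the part of sex in these values was not tested.

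The balance of the 2 oxidases was compared within libraries, where scaling plays no part. The log2 ratio of Maoa to Maob counts was 0.03 ± 0.18 (SD, n = 6) under the TAAR5-KO label and 0.02 ± 0.26 (SD, n = 6) under the WT label. The difference of 0.01 was far smaller than this spread (two-sided exact permutation test, p = 0.939, where 0.00216 is the smallest p possible). Counts of the pair were nearly equal on average, with Maoa at 1.01 times Maob, and the ratio ran from 0.800 in NK11 to 1.26 in NK9, both labelled WT. Across the 12 libraries, log2 CPM of Maoa and Maob had a Pearson's r of 0.52 (permutation p = 0.0834, adjusted p = 0.125 over 3 correlations) and a Spearman's rho of 0.34 (permutation p = 0.275). Without the 2 libraries farthest from the median of Maoa, r was 0.43 over 10 libraries.

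All 10 astrocyte markers had lower fitted levels in the libraries labelled TAAR5-KO (median log2 fold change -0.23), and 1 of them was called, the gap junction gene Gja1 (-0.41 ± 0.12, SE, n = 6 and 6; adjusted p = 0.0568; 0.144 in the quasi-likelihood test). To set Maob against astrocyte RNA, its counts were divided by the summed astrocyte markers, most of whose counts are those of the glutamate transporter Slc1a2. Slc1a2 itself had a log2 fold change of -0.04 ± 0.12 (SE, n = 6 and 6; adjusted p = 0.931 in the likelihood ratio test). The ratio therefore mainly sets Maob against Slc1a2, and it cannot tell how Maob stands to the other markers. The log2 ratio was -8.12 ± 0.35 (SD, n = 6) under the TAAR5-KO label and -8.16 ± 0.28 (SD, n = 6) under the WT label, a difference of 0.04 (two-sided exact permutation test, p = 0.762). The summed astrocyte level had a Pearson's r of -0.39 with Maob (permutation p = 0.208, Spearman's rho -0.05, permutation p = 0.886) and of -0.56 with Maoa (permutation p = 0.0558, Spearman's rho -0.51, permutation p = 0.0953) over the 12 libraries, with adjusted p = 0.208 and 0.125. Both values rested on NK4 and NK5, without which r was 0.08 and -0.18 over 10 libraries.

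**Figure D3:**
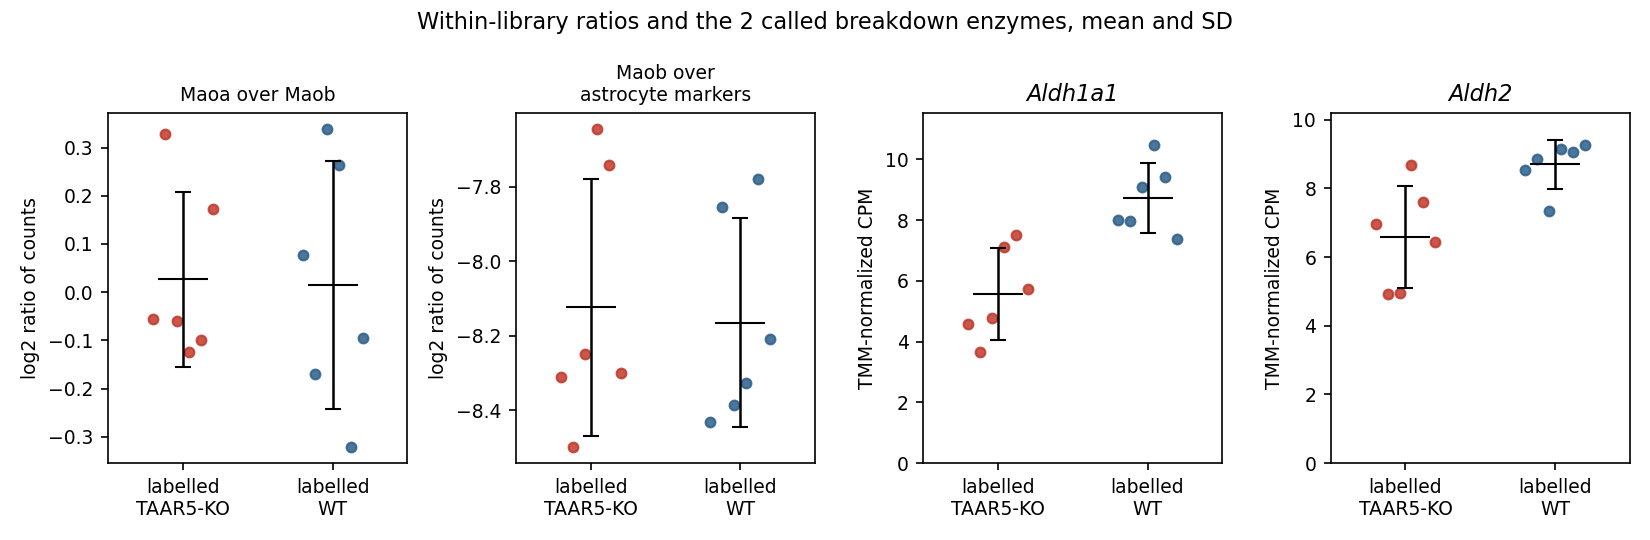
Left panels, log2 ratio of Maoa to Maob counts and of Maob to summed astrocyte marker counts in each library; right panels, TMM-normalized CPM of Aldh1a1 and Aldh2, with the mean and SD of the 6 libraries of each label. The ratios differ by 0.01 and 0.04 between the labels, whereas Aldh1a1 has means of 5.57 and 8.72 CPM.

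Genes known from the dopamine cell bodies were read at low depth. Slc18a2 loads dopamine, serotonin, noradrenaline and histamine into vesicles. It ran from 1.64 through a median of 1.77 to 2.37 CPM in the libraries labelled TAAR5-KO and from 1.31 through 1.41 to 2.12 CPM in those labelled WT. It was the 1 tested member with a higher fitted level under the TAAR5-KO label, though with library size as the only scaling its log2 fold change was -0.29, beside a median of -0.49 over all features. In the TMM-normalized values, 4 libraries labelled WT lay below every library labelled TAAR5-KO. The log2 fold change of 0.19 ± 0.18 (SE, n = 6 and 6; adjusted p = 0.714) did not pass the test, with a 95% interval from 0.902-fold to 1.45-fold. Its coefficient of variation of 19.4% was close to the 18.8% of counting error alone, at 11 to 67 counts per library. Antisense to Slc18a2, the gene Gm29261 shares 111 bases of exon, and the strand setting of the counting is not given in the sources used here.

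Ddc carries out the last step to dopamine and to serotonin, and it is also transcribed outside monoamine neurons. It ran from 0.443 through a median of 0.731 to 1.30 CPM in the libraries labelled TAAR5-KO and from 0.407 through 0.839 to 1.42 CPM in those labelled WT. The highest library was NK5 in the former group and NK9 in the latter, with NK7 next at 1.12 CPM. The log2 fold change was -0.15 ± 0.32 (SE, n = 6 and 6; adjusted p = 0.914), and its 95% interval from 0.581-fold to 1.40-fold leaves a wide range.

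Th had 5 counts in NK1, 3 each in NK2, NK3 and NK4, 8 in NK5 and 4 in NK6. Under the WT label it had 9 counts in NK7, 10 in NK8, 0 in NK9, 1 in NK10, 12 in NK11 and 7 in NK12. The libraries labelled WT thus held both the highest counts and the single 0. Normalized means were 0.248 ± 0.10 CPM (SD, n = 6) under the TAAR5-KO label and 0.262 ± 0.21 CPM (SD, n = 6) under the WT label. The log2 fold change of -0.31 ± 0.46 (SE, n = 6 and 6; adjusted p = 0.852) had a 95% interval from 0.431-fold to 1.52-fold. Without 1 library it ran from -0.54 (without NK12) to -0.055 (without NK6) in the 9 fits in which Th passed the filter, and with library size as the only scaling it was -0.89, beside the median of -0.49 over all features.

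Slc6a3, Tph2, Slc6a4 and Gch1 did not pass the filter and were described by their counts. Slc6a3, the transporter that returns dopamine to its axon, had 1 count in NK4 and 0 in the other 5 libraries labelled TAAR5-KO. Under the WT label it had 2 counts in NK7, 3 in NK8, 1 in NK9, 0 in NK10 and 2 each in NK11 and NK12. In total, 1 count stood against 10, and 5 of 6 libraries of the WT label against 1 of 6 of the TAAR5-KO label held any count. The normalized means of 0.0103 and 0.0740 CPM differed in a two-sided exact permutation test (p = 0.0281). Such a p under 0.05 was found for 2.14% of the features with a count that did not pass the filter, and for 1 of these 4 members. That share includes features whose counts are too few to reach such a p, so it is not matched to the 11 counts of Slc6a3. When all features with a count were fitted without the filter, 0.213% of them were called, and Slc6a3 was not (edgeR likelihood ratio test, unadjusted 0.00753 and adjusted p = 0.454). No library exceeded 3 counts, the limit that a count of 0 allows, so no fold is given. The floor of 3 counts corresponded to 0.0678 to 0.361 CPM among the 12 libraries, and both means lie near it or under it.

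**Figure D4:**
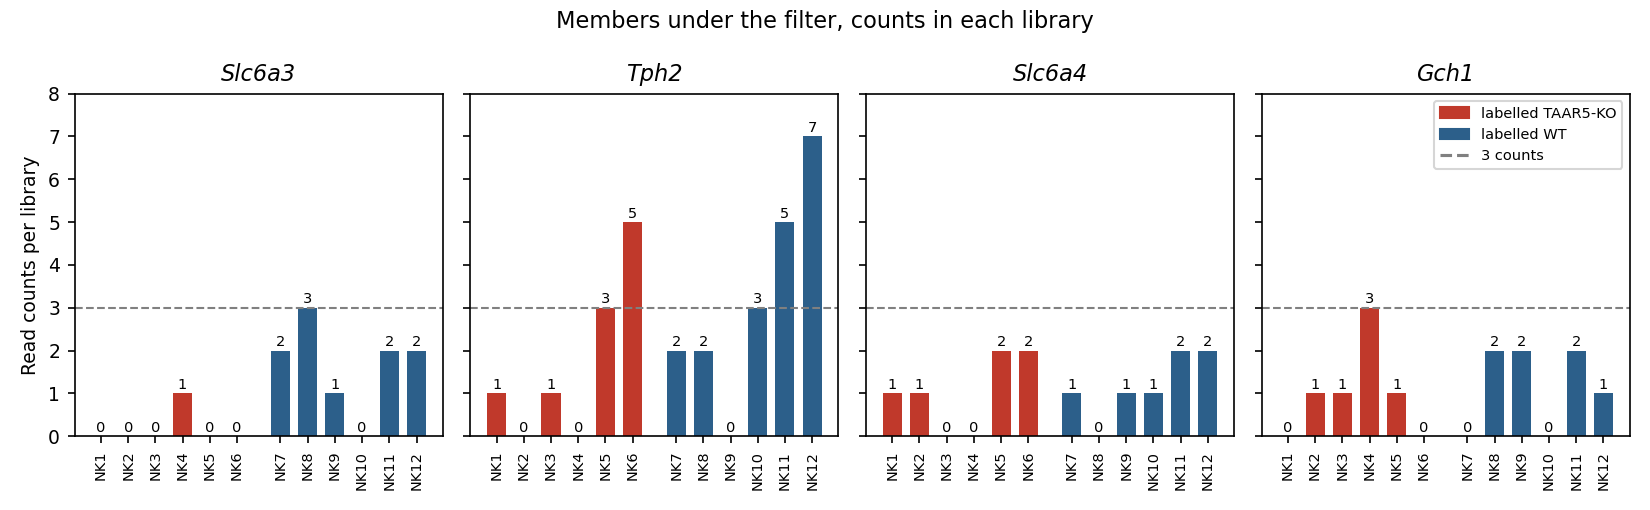
Read counts of the 4 members under the filter in each library (red, labelled TAAR5-KO; blue, labelled WT), with the floor of 3 counts as a dashed line. Slc6a3 has 1 count in the libraries labelled TAAR5-KO and 10 in those labelled WT, and Tph2 reaches 7 counts in NK12.

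The serotonergic members were near the floor under both labels. Tph2 had 1, 0, 1, 0, 3 and 5 counts in NK1 to NK6 and 2, 2, 0, 3, 5 and 7 counts in NK7 to NK12. The highest counts were those of NK6 and NK12, the libraries in their groups with the most reads outside ribosomal RNA, and the groups overlapped (two-sided exact permutation test on CPM, p = 0.197). Slc6a4 had 1, 1, 0, 0, 2 and 2 counts in NK1 to NK6 and 1, 0, 1, 1, 2 and 2 counts in NK7 to NK12 (two-sided exact permutation test, p = 0.474). No library passed 2 counts of Slc6a4, and totals were 6 and 7. Gch1, the rate-limiting enzyme of tetrahydrobiopterin synthesis, had 0, 1, 1, 3, 1 and 0 counts in NK1 to NK6 and 0, 2, 2, 0, 2 and 1 counts in NK7 to NK12 (two-sided exact permutation test, p = 0.907). Its totals were 6 and 7 as well. None of these 3 genes had an exact permutation p under 0.05.

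Other genes of the pathway were then examined in lists of 26 genes, of which 15 passed the filter. Fitted levels were higher under the TAAR5-KO label for 7 and lower for 8, with a median log2 fold change of -0.01. Of the 15 genes, 2 were called, both lower and both aldehyde dehydrogenases of breakdown, against 0.691% of all features tested that were called lower. Of the 15, 3 had an unadjusted p under 0.05 in the likelihood ratio test (Aldh1a1, Aldh2 and Akr1a1), against 11.9% of all features tested. The quasi-likelihood test called none of them, and DESeq2 called the same 2.

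Among synthetic enzymes, 1 of 6 passed the filter, the histidine decarboxylase Hdc, which makes histamine, with a log2 fold change of 0.15 ± 0.30 (SE, n = 6 and 6; adjusted p = 0.897). Dbh and Pnmt, which lead from dopamine to noradrenaline and adrenaline, did not exceed 3 counts. Of the genes that supply tetrahydrobiopterin and pyridoxal phosphate, 5 of 7 passed the filter and 0 were called or had an unadjusted p under 0.05 in the likelihood ratio test, with log2 fold changes from -0.10 for Qdpr, which regenerates the cofactor, to 0.14 for Pcbd2. Pts and Spr, which act after Gch1 in the same synthesis, were read at 17 to 75 and 7 to 68 counts per library, whereas Gch1 reached at most 3. Their log2 fold changes were 0.065 ± 0.16 and -0.01 ± 0.19 (SE, n = 6 and 6; adjusted p = 0.922 and 0.990). Pdxk, the pyridoxal kinase, had a log2 fold change of 0.01.

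Of the other transporters, 2 of 6 passed the filter, and 0 were called or had an unadjusted p under 0.05 in the likelihood ratio test. Slc22a3, an organic cation transporter of low affinity and high capacity, had a log2 fold change of -0.06 ± 0.27 (SE, n = 6 and 6; adjusted p = 0.965). Slc29a4, the plasma membrane monoamine transporter, ran from 0.390 through a median of 0.552 to 3.10 CPM in the libraries labelled TAAR5-KO and from 0.768 through 1.73 to 2.59 CPM in those labelled WT (log2 fold change -0.48 ± 0.45, SE; adjusted p = 0.730). Without NK4 this value was -1.01 (unadjusted 0.0129 and adjusted p = 0.195 in the edgeR likelihood ratio test), and over all fits without 1 library it ran from -1.01 to -0.29. It was highest in NK4, which also had the highest summed choroid plexus level (475 CPM). The 5 libraries with the lowest choroid plexus levels, NK1, NK2, NK3, NK6 and NK12, had the 5 lowest values of Slc29a4. The part of choroid plexus RNA in these values was not tested. Noradrenaline transporter Slc6a2 and the vesicular transporter Slc18a1 did not exceed 3 counts. Slc18a1 had 4 counts in total under the TAAR5-KO label, in NK5 and NK6, and 12 under the WT label, where every library held 1 or 3 (two-sided exact permutation test on CPM, p = 0.0281). In the fit without the filter, its edgeR likelihood ratio test gave adjusted p = 0.585.

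Beside the monoamine oxidases, 7 breakdown enzymes were examined, and all 7 passed the filter. Aldh1a1, a cytosolic aldehyde dehydrogenase that oxidizes the aldehyde of dopamine and also makes retinoic acid, was lower under the TAAR5-KO label. It ran from 3.67 through a median of 5.26 to 7.51 CPM in the libraries labelled TAAR5-KO and from 7.39 through 8.54 to 10.5 CPM in those labelled WT. The groups overlapped by a single pair of libraries, NK5 above NK12. The log2 fold change was -0.61 ± 0.15 (SE, n = 6 and 6; adjusted p = 0.0144), with a 95% interval from 0.536-fold to 0.806-fold, and the call was held without any 1 of the 12 libraries. In the quasi-likelihood test its adjusted p was 0.113, above the threshold.

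Aldh2, the mitochondrial aldehyde dehydrogenase, ran from 4.92 through a median of 6.70 to 8.67 CPM in the libraries labelled TAAR5-KO and from 7.33 through 8.95 to 9.27 CPM in those labelled WT. The fitted log2 change of -0.40 ± 0.13 (SE, n = 6 and 6) passed the threshold narrowly (adjusted p = 0.0976; 0.194 in the quasi-likelihood test). The call was held in 3 of 12 fits without 1 library (those without NK4, NK5 or NK9), and the adjusted p ran from 0.0119 without NK4 to 0.256 without NK2. Akr1a1, an aldehyde reductase, was the 1 of the 15 tested pathway genes whose groups did not overlap, against 1.01% of all features tested. It had 11.8 to 13.0 CPM under the TAAR5-KO label and 13.6 to 16.0 CPM under the WT label. The fitted log2 change of -0.22 ± 0.079 (SE, n = 6 and 6; adjusted p = 0.166) did not pass the test.

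Markers of other cell types were set beside these enzymes. In addition to the lower astrocyte markers given above, all 8 spiny neuron markers had higher fitted levels under the TAAR5-KO label (median log2 fold change 0.33, none called), and all 6 choroid plexus markers had lower ones (median -0.52, none called). Aldh1a1 was lowest in NK1, NK2, NK3 and NK6, where the choroid plexus sum was 2.45 to 8.21 CPM. It was higher in NK4 and NK5, at 7.12 and 7.51 CPM, beside choroid plexus sums of 475 and 183 CPM. In the libraries labelled WT, NK12 had a choroid plexus sum of 3.43 CPM and 7.39 CPM of Aldh1a1, the lowest value of its group but above NK1, NK2, NK3 and NK6. The other 5 libraries labelled WT had choroid plexus sums of 113 to 290 CPM and 7.97 to 10.5 CPM of Aldh1a1, all above NK4 and NK5. Summed levels of 9 marker lists were compared between the labels, and 0 had an adjusted p under 0.05 (two-sided exact permutation test). Unadjusted, 1 list passed 0.05, that of spiny neurons (exact permutation p = 0.0216, adjusted p = 0.195). The part of these cell types in the levels of Aldh1a1, Aldh2 and Akr1a1 was not tested.

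Hnmt, which methylates histamine, had a log2 fold change of 0.03 ± 0.10 (SE, n = 6 and 6; adjusted p = 0.950). Aldh3a2, Aldh1b1 and the sulfotransferase Sult1a1 had log2 fold changes of -0.14, 0.31 and 0.42 and did not pass the test.

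**Figure D5:**
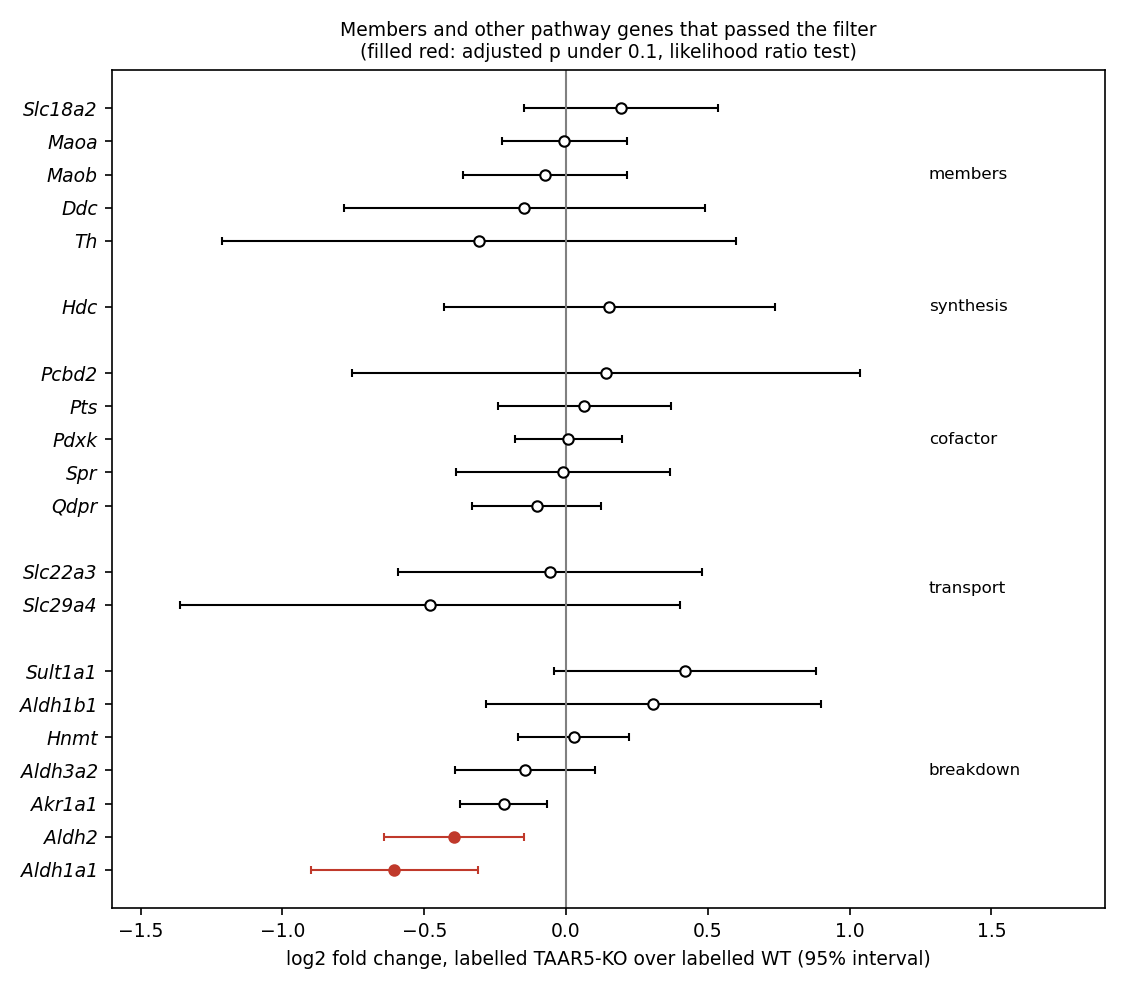
Log2 fold change of labelled TAAR5-KO over labelled WT, with 95% intervals, for the 5 members and the 15 other pathway genes that passed the filter, ordered by role. Aldh1a1 (-0.61) and Aldh2 (-0.40) are filled as called in the likelihood ratio test, and the intervals of all 5 members include 0.

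The genes most like each better-read member were sought by Pearson's r of TMM log2 CPM over the 12 libraries, among all other features tested. Maoa was most like the membrane protein gene Perp (r = 0.93), the calmodulin-like gene Calml4 (0.92) and Spag16, a gene of the ciliary axoneme (0.92). Maob was most like the synaptotagmin gene Syt9 (0.92), Thap4 (0.87) and the predicted gene Gm32699 (0.87). Slc18a2 was most like 2700049A03Rik (0.85), the kinase gene Tec (0.85) and Paip1 (0.85). No gene appeared for more than 1 member, and none of these 9 genes was called. The points share libraries and depth, and such maxima over 13902 features are a description of these libraries.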

How the data were processed

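Directional single-end libraries were made from striatal RNA of 12 mice after depletion of ribosomal RNA. The authors used cutadapt 4.1 for trimming, STAR 2.7.11b for alignment to GRCm39 and featureCounts 2.0.6 for counting, and deposited raw counts per gene without normalization or pooling. The table holds 12 more count columns, which were left unused. Columns were assigned to genotypes by their names, each column serving as a replicate of its label.

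Features entered the fit when 3 or more libraries had 0.5 CPM or more, and were normalized with TMM in edgeR 4.0.16 (R 4.3.3). Labels were compared by glmLRT after glmFit, with no covariate, adjusted by Benjamini–Hochberg over all 13902 features and called under 0.1. The test, the minimum of 0.5 CPM and the threshold follow the study's methods, while the use of total counts in the filter was a choice made here. Quasi-likelihood results are given beside these, and DESeq2 1.42.0 is an alternative. Standard errors came from the same fit, and 95% intervals are 1.96 standard errors to each side. Single values were tested by two-sided exact permutation of 6 against 6 libraries with SciPy 1.17.1, and correlations by 100000 permutations of log2 CPM without a prior count. A prior count of 2 was used only for the log2 CPM in the search for the genes most like each member. Floors cover counting error only, and the intervals also hold the fitted dispersion between libraries. Since no source ties libraries to animals, p-values measure the spread between libraries, which may be technical in part. The fits were tested on simulated data.

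The named genes were Taar5, the members, pathway genes that passed the filter, called or defining markers, and for each member with a median of at least 20 counts the 3 features of highest r. The members, lists and tests were chosen with earlier results of these data known. Some genes of the pathway lists are not reported here. Lhb, whose symbol stands on more than 1 row, was left out of the pituitary list. Exon overlaps, shared runs and matches (BLAST 2.17.0) came from GRCm39 with GENCODE M39, a later annotation than the one counted.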

Additional observations from a re-analysis of the deposited data

Results flagged for a closer look

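In 70 groups of 6 libraries, the highest or lowest library was compared with its nearest neighbour, and in 7 groups the gap took more than 0.625 of the range. For normally distributed values, chance alone marks about 1 in 20 groups. Among the members, Slc6a3 was marked in NK4 at 0.0619 CPM (1 count), the 1 library labelled TAAR5-KO with any count of this gene. Where all other libraries of a group hold 0 counts, the rule marks any single count, so this mark carries no weight. Hdc was at 0.723 CPM in NK10 against 0.501 CPM in the nearest library labelled WT. Spr was at 0.766 CPM in NK9, below the next value of 1.37 CPM in the libraries labelled WT. Akr1a1 was at 16.0 CPM in NK10 against 14.3 CPM in the nearest library labelled WT.

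Summed pituitary markers reached 5.58 CPM in NK5, where the next library labelled TAAR5-KO had 0.782 CPM, and 55.9 CPM in NK11, where the next library labelled WT had 17.2 CPM. Gh, the growth hormone gene, was called lower under the TAAR5-KO label (log2 fold change -3.59 ± 1.01, SE, n = 6 and 6; adjusted p = 0.0668 in the likelihood ratio test, 0.180 in the quasi-likelihood test). Its counts were 2, 0, 0, 0, 12 and 3 in NK1 to NK6 and 3, 1, 0, 11, 127 and 104 in NK7 to NK12. The groups overlapped, with most counts in NK11 and NK12 (two-sided exact permutation test on CPM, p = 0.126). NK11 also had the lowest summed spiny neuron level, 175 CPM against 278 CPM in the nearest library labelled WT. In NK11, Maob was at 5.54 CPM, Th at 0.554 CPM and Slc18a2 at 2.12 CPM, each the highest value of the libraries labelled WT, and the part of the pituitary and spiny neuron RNA in these values was not tested.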

How the results depend on the processing

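None of the 9 members was called under any alternative that gave it a value. Of the 4 members under the filter, 1 (Slc6a3) had an exact p under 0.05 in each of the 12 sets of 11 libraries. This exact permutation p ran from 0.00649 to 0.0433. The sets share the same 11 counts of Slc6a3, at most 3 per library, so they are not independent of each other. Th did not pass the filter with filterByExpr, with CPM on TMM sizes, or without NK11 and NK12. Over all features the median log2 fold change was -0.49 when library size was the only scaling, where Maoa had -0.43 and Maob -0.49. On that scale the fold changes of Slc18a2 (-0.29), Hdc (-0.21), Pts (-0.37), Pcbd2 (-0.31), Pdxk (-0.49), Aldh1b1 (-0.19), Hnmt (-0.42) and Sult1a1 (-0.053) fell below zero, as did the summed levels of endothelial (-2.61 CPM), midbrain dopamine (-5.00 CPM) and spiny neuron markers (-45.3 CPM) without TMM.

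The number of pathway genes called was 2 with the CPM filter on TMM sizes, filterByExpr and DESeq2. It was 1 with RLE size factors, without the filter, with ribosomal RNA features removed, with the ribosomal RNA share as a covariate, with the trend on GC content removed, without NK11 and NK12, and at an adjusted p under 0.05, and in each of these Aldh2 was lost. It was 0 with library size only and in the quasi-likelihood test. Without 1 library it was 1 to 2. The covariate and the GC trend were added after seeing the data. Over all features, calls numbered 229, 177 with DESeq2, 98 with the covariate, 86 with the GC trend, 93 without the filter, 7 with library size only, 53 without NK11 and NK12, and 85 (without NK11) to 414 (without NK4) without 1 library. Causes were not tested.

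Signs of values near zero turned. Without NK11 and NK12, Maob was at 0.00027, Spr at 0.066, Pdxk at -0.058, the log2 ratio of Maoa to Maob at -0.10, and the cortical and ependymal sums at 12.9 and -0.240 CPM. With the covariate, Spr was at 0.041 and Pdxk at -0.048, and with the GC trend removed Spr was at 0.060 and Hnmt at -0.16. Spr was at 0.0073 in DESeq2 and 0.0031 in the quasi-likelihood test, Pdxk at -0.018 without the filter and -0.0063 without ribosomal RNA features, and Hnmt at -0.0032 without the filter.

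Without 1 library, log2 fold changes ran from -0.045 to 0.026 for Maoa, -0.14 to 5.8e-05 for Maob, -0.39 to 0.034 for Ddc, -0.54 to -0.055 for Th, -1.01 to -0.29 for Slc29a4, -0.012 to 0.27 for Hdc, -0.010 to 0.12 for Pts, -0.083 to 0.083 for Spr, -0.082 to 0.31 for Pcbd2, -0.030 to 0.050 for Pdxk, -0.16 to 0.11 for Slc22a3 and -0.0073 to 0.077 for Hnmt. The CPM difference of Gch1 ran from -0.0293 to 0.0248, the log2 ratio of Maoa to Maob from -0.056 to 0.076 and that of Maob to astrocyte markers from -0.055 to 0.12. Cortical sums differed by -6.90 to 6.38 CPM and ependymal sums by -0.863 to 0.773 CPM. Th and Pcbd2 passed the filter in 9 of these 12 fits. No paired analysis was possible because the columns carry library numbers that are not tied to the animal numbers of the labels.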

Other observations

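Summed levels of the marker lists not given above were compared between the labels by two-sided exact permutation tests over the 12 libraries. Endothelial markers had 8.79 ± 1.00 CPM (SD, n = 6) under the TAAR5-KO label and 8.14 ± 0.94 CPM (SD, n = 6) under the WT label, with exact permutation p = 0.268. Cortical pyramidal markers had 58.5 ± 27 and 59.5 ± 25 CPM (SD, n = 6 each; exact permutation p = 0.950), and ependymal markers 5.26 ± 3.4 and 5.22 ± 1.1 CPM (SD, n = 6 each; exact permutation p = 0.985). Astrocyte markers had 1166 ± 81 and 1242 ± 65 CPM (SD, n = 6 each; exact permutation p = 0.117). Midbrain dopamine markers had 10.6 ± 2.9 and 9.78 ± 1.5 CPM (SD, n = 6 each; exact permutation p = 0.545). Most of these sums was Nr4a2, also known from other neurons, with means of 7.88 and 6.49 CPM. Serotonergic markers had 0.118 ± 0.084 and 0.258 ± 0.17 CPM (SD, n = 6 each; exact permutation p = 0.0974), choroid plexus markers 113 ± 191 and 168 ± 102 CPM (SD, n = 6 each; exact permutation p = 0.574) and pituitary markers 1.37 ± 2.1 and 14.9 ± 21 CPM (SD, n = 6 each; exact permutation p = 0.0974).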
